A study of Oryza sativa with 6 samples.

Results

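Roots take up nitrogen as ammonium and nitrate through membrane transporters, and 8 such genes of rice were followed here, chosen by their Rice Annotation Project identifiers from 37942 gene models. They are AMT1;1 and the neighbouring AMT1 genes Os02g0620500 and Os02g0620600, the nitrate transporters NRT2.1, NRT2.2 and NRT2.3, their partner protein gene NAR2.1, and NRT1.1B. The choice was made by gene identity and used none of the values below, though earlier results of these data were known when it was made.

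The AMT1 proteins carry ammonium into root cells with high affinity. The NRT2 proteins do the same for nitrate at low supply, and in rice NRT2.1, NRT2.2 and the long form of NRT2.3 need NAR2.1 to work. NRT1.1B belongs to the other, NPF family of nitrate transporters, and it also takes part in nitrate sensing. Rice growing in flooded soil meets mainly ammonium, while nitrate forms in the oxygenated zone around its roots.

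Messenger RNA was sequenced in strand-specific libraries from 3 kinds of root (nodal, S-type lateral and L-type lateral) of plants with the genotype label Mulai, grown as controls or with 50 mM NaCl for 7 days. Nodal roots arise from the stem, short, unbranched laterals are called S-type, and the longer ones that branch again are called L-type. Each of the 6 groups (3 root types, control or salt) is 1 library, so no value has a replicate, and the labels do not say how many plants a library holds, whether root types share plants, what form of nitrogen was supplied or at what time of day roots were taken. In whole roots, fewer cells of a type and less RNA per cell cannot be told apart.

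The libraries held between 5620282 (control L-type) and 8711710 (salt S-type) fragments in genes. Levels in different libraries are compared below as scaled fragments, the fragment count of a gene times the authors' factor for that library, and levels of different genes as FPKM, which is per length. Intervals are 95% and cover counting error only, since fragments are not independent molecules and nothing is known of the spread between plants. The silicon channel gene Lsi1, a root gene, was present in every library, from 3179 to 22198 scaled fragments. The other gene of the root list, Os02g0662000, has no supported name and was also present in every library. It held 13584 (nodal), 378 (S-type) and 3911 (L-type) scaled fragments as control, where Lsi1 held 3179, 21526 and 8976. Under both treatments it was highest in nodal roots, where Lsi1 was lowest, and lowest in S-type roots, where Lsi1 was highest. The 2 green tissue genes with a supported name, CAB1R and CAB2R, summed to 225 (nodal), 65.6 (S-type) and 195 (L-type) scaled fragments as control. With salt they summed to 48.1, 26.1 and 54.3, lower in each root type. In L-type roots CAB2R went from 3 fragments as control to 0 under salt. Another gene of that list, Os12g0274700, has no supported name and did not follow the sums. It went from 7.82 to 17.4 scaled fragments in nodal roots and from 3.76 to 1.84 in L-type roots, and was at 0 in S-type roots. Clock genes differed between treatments in every root type: the morning gene LHY held 630 (nodal), 525 (S-type) and 306 (L-type) scaled fragments as control and 110, 58.5 and 67.1 under salt. The evening gene PCL1 held 2.61, 1.29 and 1.25 in the same control libraries and 73.8, 108 and 176 under salt, and the list of 4 clock genes, with PRR1 and GI, summed to 5581 to 12293 as control and 9819 to 18052 under salt. Whether the differences in the green tissue and clock genes have a part in any salt ratio below was not tested.

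The names were checked against a RefSeq gene table of another rice assembly, which has AMT1;1, NRT2.1, NRT2.2, NRT2.3 and NAR2.1 on the same chromosome, in the same order and with a similar length. For NRT2.3 another gene, with no name there, was nearer to the place expected, at 1548 bases. It gives no name at the position of NRT1.1B, whose name rests on its identifier alone. For the neighbouring AMT1 genes the sources disagree. The selection rule called Os02g0620500 AMT1;2 and Os02g0620600 AMT1;3, whereas the table has OsAMT1;3 at the position of Os02g0620500, 4 bases from the place expected, and OsAMT1;2 at that of Os02g0620600, 210 bases from it. The table also lists both AMT1-2 and AMT1-3 as synonyms of each gene. These genes are therefore given by identifier.

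The first question is where the ammonium transporters are expressed and how salt moves them. AMT1;1 and Os02g0620600 were the main AMT1 genes in every library, and both stood higher under salt in L-type roots, by 2.47-fold and 3.08-fold. Neither was higher under salt in nodal roots, and Os02g0620500 was nearly silent outside S-type roots.

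AMT1;1 (Os04g0509600, chromosome 4, 25500158 to 25502557 on IRGSP-1.0), an ammonium transporter gene known from roots and shoots, held 376 scaled fragments as control in nodal roots, against 140 in S-type and 129 in L-type. With salt the nodal level was 358, the S-type level 186 and the L-type level 319. The nodal libraries and the salt L-type library were high, and the other lateral libraries low. In order of level, both nodal libraries and then salt L-type came first, with neighbours within counting error of each other. Salt S-type followed, and the lateral controls came last, within counting error of each other. The log2 ratio of salt to control was -0.07 (interval -0.27 to 0.13) for nodal roots, 0.41 (0.07 to 0.76) for S-type roots, and 1.30 (0.99 to 1.64) for L-type roots.

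Os02g0620600 (chromosome 2, 24690869 to 24692736) held 499 scaled fragments as control in nodal roots, against 346 in S-type and 62.6 in L-type. With salt the nodal level was 425, the S-type level 468 and the L-type level 193. Its control L-type library was the lowest of the 6, with 50 fragments, and lay below both nodal and both S-type libraries, as did the salt L-type library. The log2 salt ratio was -0.23 (-0.41 to -0.06) for nodal roots, 0.44 (0.22 to 0.65) for S-type roots, and 1.61 (1.17 to 2.1) for L-type roots, so that the nodal interval lay below 0 and both lateral intervals above it. The level in salt L-type roots was still 0.455 times that in salt nodal roots.

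Os02g0620500 (chromosome 2, 24683709 to 24685205) held 11.6 scaled fragments in S-type roots as control and 28.8 with salt, which is 9 and 32 fragments. In nodal roots it held 3 fragments in control and 1 under salt, and in L-type roots 2 and 3. Only the S-type libraries rose above the floor of 3 fragments, and their log2 salt ratio was 1.25 (0.22 to 2.57). Per length, Os02g0620600 stood at 5.33 to 41.9 FPKM, AMT1;1 at 10.8 to 29.3 FPKM and Os02g0620500 at 0.089 to 3.15 FPKM. Their summed level was 71.5 FPKM in nodal controls, against 42.4 for S-type and 16.4 for L-type. Under salt the sum was 63.6, 58.0 and 40.8 FPKM in the same order. Os02g0620600 made up 69.3% and 68.6% of that sum in S-type roots and 58.7% and 56.0% in nodal roots, control first. In L-type roots it made up 32.5% and 39.5%, where AMT1;1 was the larger part.

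Each AMT1 gene overlaps a model with its own identifier at the same locus: Os04g0509500, Os02g0620533 and Os02g0620566. These held 0 to 2, 0 to 1 and 1 to 3 fragments per library, so reads at these loci were given almost wholly to the AMT1 models.

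**Figure D1:**
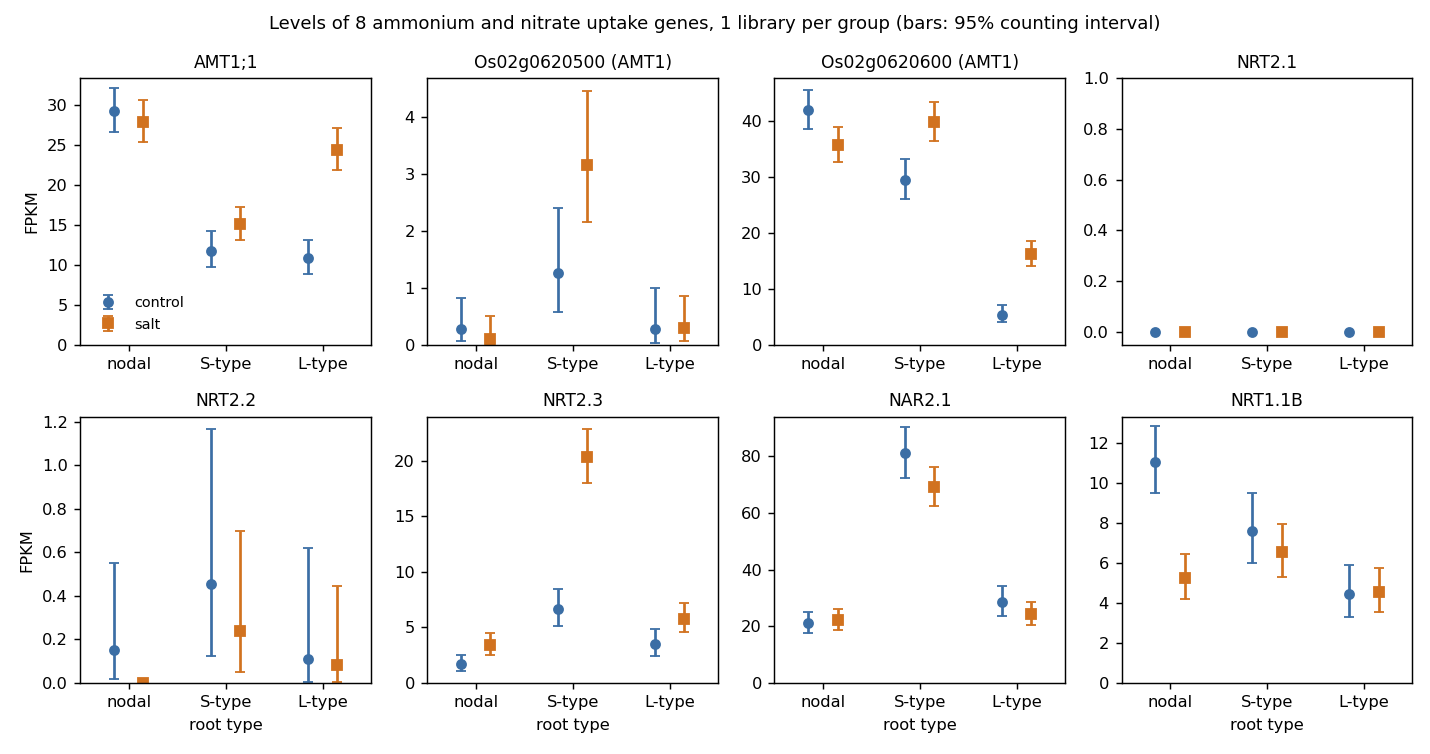
Level of each of the 8 genes in FPKM (vertical axis, from 0, a scale of its own in each panel) by root type (horizontal axis), with 1 library per point, circles for control and squares for salt, and bars for the 95% counting interval. AMT1;1 rose from 10.8 to 24.4 FPKM and Os02g0620600 from 5.33 to 16.1 between the L-type libraries, NRT2.3 and NAR2.1 were highest in S-type roots, and NRT2.1 was listed at 0 in every library.

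The L-type libraries also differed in genes of the water-conducting tissue by scaled fragments, though little by FPKM. The secondary wall cellulose synthases CESA4, CESA7 and CESA9, all 3 of that list, summed to 758 scaled fragments in L-type controls and 1169 with salt, or 46.8 and 50.0 FPKM. In nodal roots they summed to 6252 and 4613 scaled fragments and in S-type roots to 126 and 131, control first, and none was at 0. The part of this difference in the L-type ratios of AMT1;1 and Os02g0620600 was not tested.

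The second question is how the high-affinity nitrate system stood in the 3 root types. NAR2.1 and NRT2.3 were highest in S-type roots under both treatments, and NRT2.3 was higher under salt in every root type while NAR2.1 stayed within 1.18-fold. NRT2.1 and NRT2.2 gave almost no fragments.

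NAR2.1 (Os02g0595900, chromosome 2, 23121133 to 23123149) held 111 scaled fragments as control in nodal roots, against 418 in S-type and 147 in L-type. With salt these were 117, 355 and 130. Both S-type libraries lay above all others, and the next library down, control L-type, was 2.42-fold lower than salt S-type. Neighbours among the 4 nodal and L-type libraries were within counting error of each other. The log2 salt ratio was 0.07 (-0.28 to 0.43) for nodal roots, -0.24 (-0.45 to -0.02) for S-type roots, and -0.18 (-0.54 to 0.19) for L-type roots.

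NRT2.3 (Os01g0704100, chromosome 1, 29188850 to 29190936), whose long form loads nitrate for transport to the shoot in rice, held 20.9 scaled fragments as control in nodal roots, against 81.0 in S-type and 42.6 in L-type. With salt the nodal level was 42.3, the S-type level 249 and the L-type level 71.7. The salt S-type library stood alone, 3.08-fold above control S-type, which came next. The log2 salt ratio was 0.99 (0.29 to 1.79) for nodal roots, 1.61 (1.22 to 2.04) for S-type roots, and 0.74 (0.15 to 1.38) for L-type roots, all intervals above 0. The table counts per gene, so the long and short forms were not separated.

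Per length, NAR2.1 stood above NRT2.3 in every library. NAR2.1 ran from 21.1 FPKM in control nodal to 81.1 FPKM in control S-type roots, and NRT2.3 from 1.67 FPKM in control nodal to 20.3 FPKM in salt S-type roots. The ratio of NAR2.1 to NRT2.3 in FPKM was 12.6 for nodal, 12.3 for S-type and 8.21 for L-type controls. It was 6.49, 3.40 and 4.19 under salt, lower than in control in each root type.

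NRT2.1 (Os02g0112100, chromosome 2, 655324 to 657243) was listed at 0 in all 6 libraries, as were 24.3% of all gene models. A count of 0 allows up to 3 fragments, the floor used for each library. NRT2.2 (Os02g0112600, chromosome 2, 667264 to 669053) held 2 (nodal), 4 (S-type) and 1 (L-type) fragments as control and 0, 3 and 1 under salt, and no ratio is given. In rice the coding regions of NRT2.1 and NRT2.2 are known to be nearly the same, so most fragments from either match both. How the authors' processing treated fragments with several matches is not given in the sources used here. At most 3 values in any library, within a tolerance of 0.02 fragments, were not a whole number of fragments, so the table holds almost no fragments divided between genes. The low values of NRT2.1 and NRT2.2 are therefore uncertain.

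NRT1.1B (Os10g0554200, chromosome 10, 21757771 to 21762202) was highest in control nodal roots, where it was lower under salt. It held 152 scaled fragments there, against 100.3 in S-type and 60.1 in L-type controls. With salt these were 72.1, 87.3 and 63.5. Control nodal roots stood above the rest, and each later library in order of level was within counting error of the next. The log2 salt ratio was -1.07 (-1.46 to -0.70) for nodal roots, -0.20 (-0.65 to 0.25) for S-type roots, and 0.08 (-0.48 to 0.64) for L-type roots. Its level ran from 4.45 to 11.1 FPKM.

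**Figure D2:**
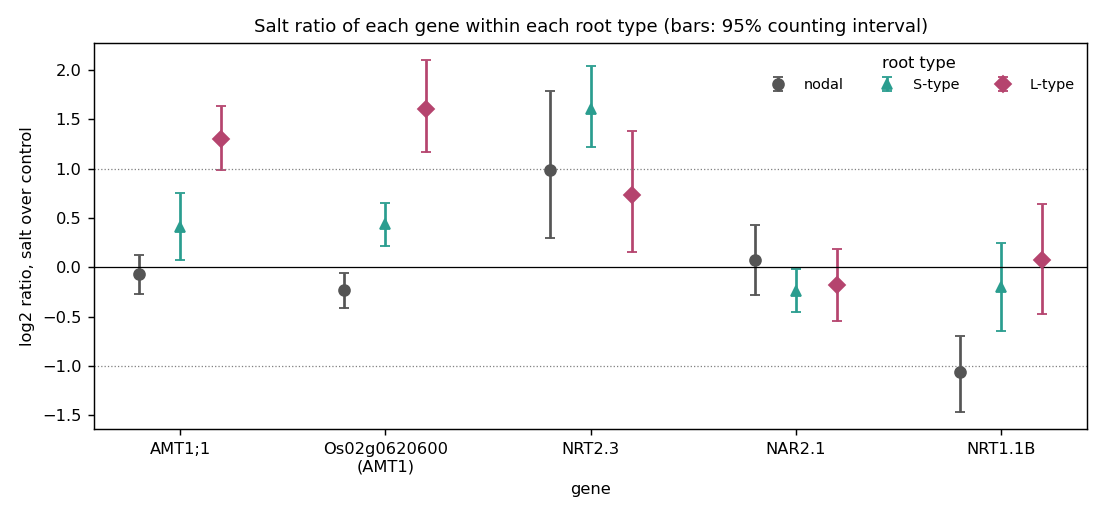
Log2 ratio of salt to control in scaled fragments (vertical axis) for the 5 genes with enough fragments (horizontal axis), by root type, with 1 library on each side of a ratio, bars for the 95% counting interval and dotted lines at 2-fold. The L-type points of AMT1;1 (1.30) and Os02g0620600 (1.61) lie above those of the other root types, all NRT2.3 points lie above 0, and the nodal point of NRT1.1B lies at -1.07.

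Read against all genes, these single-pair ratios were as follows. In L-type roots AMT1;1 and Os02g0620600, 2 of the 5 members with at least 50 scaled fragments in the higher library, were at least 2-fold higher under salt, against 1.64% of 15310 genes, with 5.86% past 2-fold in either direction. In S-type roots NRT2.3, 1 of 5 members, was higher, against 1.63% of 14762 genes (3.43% in either direction). In nodal roots NRT1.1B, 1 of 4 members, was lower, against 1.75% of 15223 genes (3.02% in either direction). In nodal roots NRT2.3 stood at 42.3 scaled fragments in the higher library and so was not counted there. Its log2 ratio, taken with 1 added to each value, was 0.99 and so also just under the 2-fold line. Without the added 1 the ratio was 2.03-fold. No single pair has a test, and the difference in salt response between root types was not tested for any gene.

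The authors' deposited table holds tests of all 15 pairs of libraries. It gives 0 of the 8 members a q-value under 0.05 in any pair, where 0.321% of all tests passed. The lowest q-value of a member in the authors' deposited table was 0.177, for Os02g0620600 with a p-value of 0.0017. In that table NAR2.1 had a p-value under 0.05 in 5 pairs, and NRT2.3 and Os02g0620600 in 4 pairs each. The share of all tests at this threshold was not counted. Each of those NAR2.1 pairs set an S-type library against a nodal or L-type one. Every such NRT2.3 pair held the salt S-type library, and every such Os02g0620600 pair the control L-type library. The pairs of a gene therefore share libraries and are not independent.

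To put both treatments together, an additive model of root type and treatment was fitted to all 19900 genes that passed a filter on low values, with limma on log2 values after TMM scaling and a pseudocount of 1. Of the 8 members, 5 passed the filter and were tested: AMT1;1, Os02g0620600, NRT2.3, NAR2.1 and NRT1.1B. The model leaves 2 residual degrees of freedom. With no replicates, the error of the salt effect comes from its differences among root types, and that of a root type effect from its differences between treatments. In limma each gene's error is also drawn towards a trend over all genes tested. An SE or adjusted p from limma therefore does not measure the spread of that gene alone.

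For salt over the 3 root types, limma called 0 of 5 members at an adjusted p under 0.05, where 0.121% of all genes were called. At an unadjusted p under 0.05 there was 1 member, NRT2.3, where 2084 of all 19900 genes passed. Both edgeR and DESeq2 also gave 0 called and 1 unadjusted, where 2039 and 1035 of the 19900 genes passed unadjusted. NRT2.3 had a log2 difference of 1.12 (SE 0.23, limma adjusted p = 0.245), with the same sign in 3 of 3 root types and an adjusted p between 0.0926 and 1 over 18 alternatives. AMT1;1 had 0.55 (SE 0.25) and Os02g0620600 had 0.61 (SE 0.32). NAR2.1 had -0.10 (SE 0.13) and NRT1.1B had -0.39 (SE 0.25). The median of the 5 was 0.55 against 0.004 over all genes tested.

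Root type separated the genes more. S-type against nodal roots gave calls for 3 of 5 members, 2 higher and 1 lower, where 55.3% of all genes were called, 27.3% higher and 28% lower, so the count is close to that of all genes. NRT2.3 was higher in S-type roots with a log2 difference of 2.2 (SE 0.28, limma adjusted p = 0.00135) and NAR2.1 with 1.73 (SE 0.16, limma adjusted p = 0.000538), each in both treatments. Both calls held in all 14 alternatives, with an adjusted p of at most 0.0131 for NRT2.3 and 0.00712 for NAR2.1. AMT1;1 was lower in S-type roots, with -1.19 (SE 0.31, limma adjusted p = 0.0181). That call ended without the control nodal library (-0.71, limma adjusted p = 0.153), without the control S-type library (-1.27, adjusted p = 0.0704) and without the salt S-type library (-1.09, adjusted p = 0.100).

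L-type against S-type roots gave calls for 3 of 5 members, all lower in L-type, where 34.5% of all genes were called and 15.5% were lower. NAR2.1 had -1.46 (SE 0.16, limma adjusted p = 0.00244), and its call held in all 14 alternatives. NRT2.3 had -1.33 (SE 0.28, limma adjusted p = 0.0156), which became -0.96 (adjusted p = 0.0950) without the salt S-type library and -1.05 (adjusted p = 0.0845) without the salt L-type library. Os02g0620600 had -1.85 (SE 0.39, limma adjusted p = 0.0163), which became -1.74 (adjusted p = 0.0982) without the control S-type and -1.97 (adjusted p = 0.0647) without the salt S-type library. AMT1;1 was not called, with 0.34 (SE 0.31), though it was higher in L-type by 0.90 without the control L-type library (limma adjusted p = 0.0323). Without the salt L-type library its difference had the other sign, with -0.22 (limma adjusted p = 0.556).

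L-type against nodal roots gave a call for 1 of 5 members, where 12.3% of all genes were called and 5.13% were lower. Os02g0620600 was lower in L-type roots, with -2.05 (SE 0.39, limma adjusted p = 0.0305). It was -2.97 (-3.44 to -2.58) between the control libraries and -1.13 (-1.38 to -0.90) between the salt libraries. The call ended without the control nodal library (-1.41, limma adjusted p = 0.225) and without the control L-type library (-1.31, adjusted p = 0.0530). AMT1;1 had -0.85 (SE 0.31, limma adjusted p = 0.120), with -1.54 in control and -0.17 under salt, and was called without the salt L-type library (-1.41, adjusted p = 0.0127). NRT2.3, NAR2.1 and NRT1.1B were not called, with 0.87, 0.27 and -0.76.

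**Figure D3:**
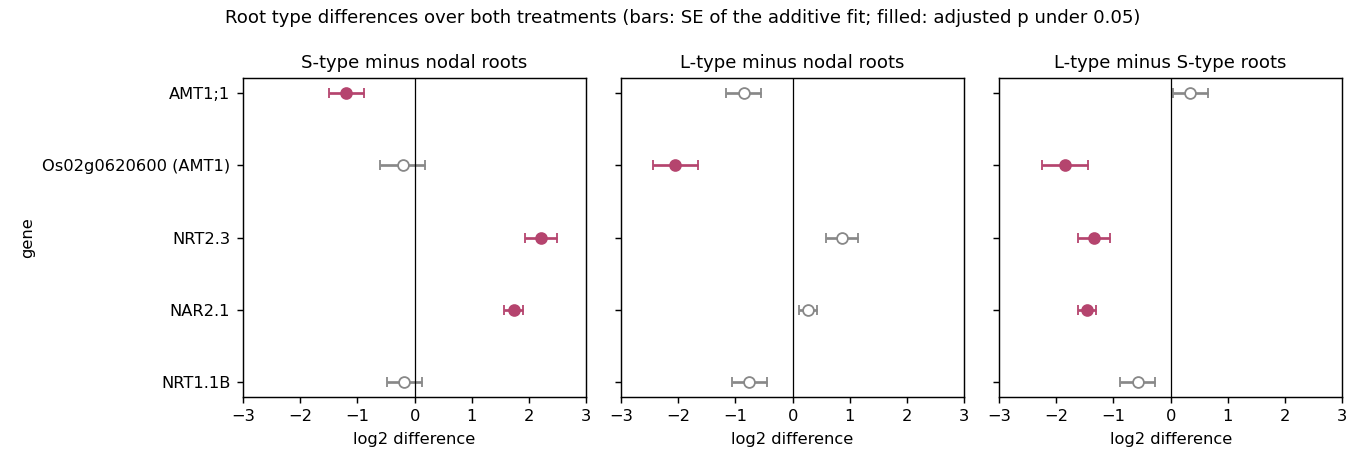
Log2 difference between root types over both treatments (horizontal axis) for the 5 tested genes (vertical axis), with bars for the SE of the additive limma fit and filled points for an adjusted p under 0.05. NRT2.3 and NAR2.1 lie at 2.2 and 1.73 in S-type minus nodal roots, and Os02g0620600 lies at -2.05 and -1.85 in the L-type differences.

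Other genes of nitrogen uptake and use were taken as lists, of which 16 of 33 identifiers have a name that the reference table supports. None of those tested with a supported name was called for salt by limma, against 0.121% of all genes. The counts were 0 of 5 other ammonium transporters (median 0.09), 0 of 4 regulators of the nitrate response (median 0.35) and 0 of 5 assimilation enzymes (median 0.32). The median over all genes was 0.004. Identifiers without a supported name were left out of these counts and medians. Among them, Os04g0597600 of the nitrate transporter list had -1.47 (SE 0.41, limma adjusted p = 0.374). In the enzyme list Os01g0357100 had -1.17 (SE 0.13, limma adjusted p = 0.0708) and Os05g0555600 had 1.13 (SE 0.39, limma adjusted p = 0.435). Of the other nitrate transporter genes NAR2.2 alone had a supported name, and it was at or under 2 fragments in each library and not tested. AMT2;1, an ammonium transporter of another clade, differed by -0.81 (log2, SE 0.18, limma adjusted p = 0.282), with -0.72 for nodal, -0.75 for S-type, and -1.0 for L-type pairs. AMT2;2 had 0.79 (SE 0.26) and AMT3;2 had 0.23 (SE 0.21). Among the regulators NLP1 and NLP2, of a family that switches on nitrate-responsive genes in Arabidopsis, had 0.45 (SE 0.13) and 0.41 (SE 0.18). NIGT1, a repressor induced by nitrate, had -0.45 (SE 0.18). The cytosolic glutamine synthetase gene GS1;2, whose enzyme binds ammonium into glutamine, had 0.62 (SE 0.25). Its single ratios were 0.19 for nodal, 0.21 for S-type, and 1.42 (1.34 to 1.5) for L-type pairs, where it went from 2092 to 5588 scaled fragments. Fd-GOGAT and GS1;1 had 0.38 (SE 0.13) and -0.34 (SE 0.12).

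**Figure D4:**
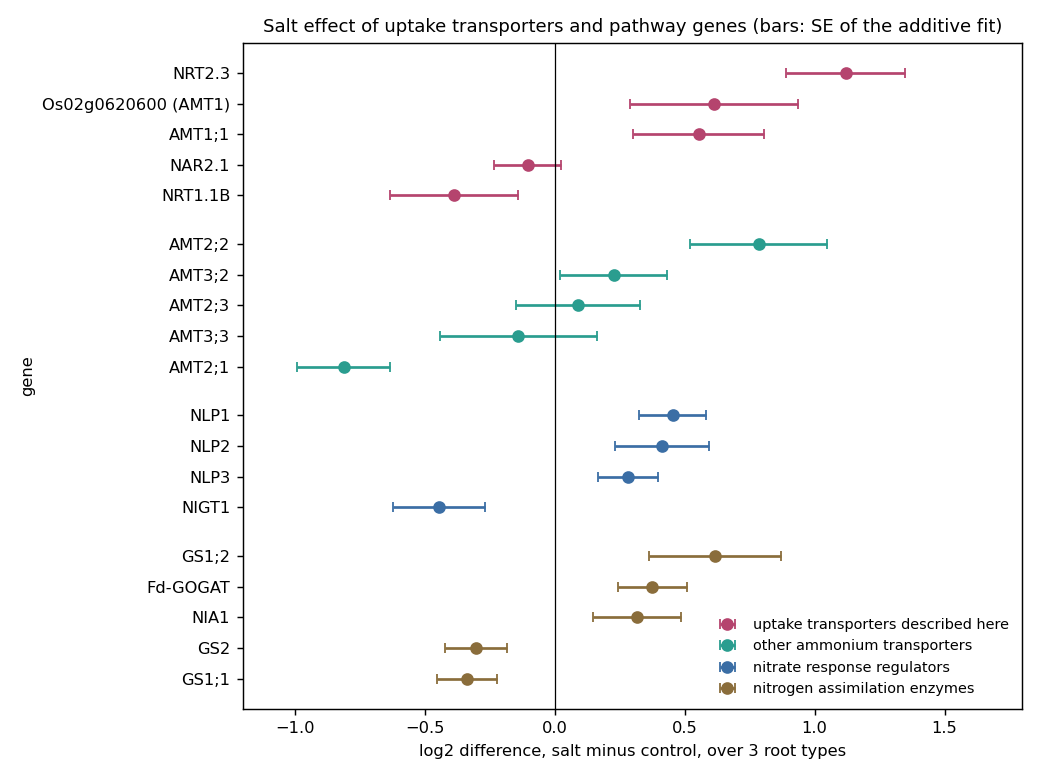
Log2 difference of salt minus control over the 3 root types (horizontal axis) for the 5 tested uptake transporters and the tested list genes with a supported name (vertical axis), with bars for the SE of the additive limma fit. NRT2.3 lies farthest right at 1.12 and AMT2;1 farthest left at -0.81, and no gene shown passed the threshold.

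For the tested members whose log2 value ranged by at least 2 over the 6 libraries, the genes with the most similar profile were sought among 19899 others by Pearson correlation over the 6 libraries. NRT2.3 came closest to Os02g0103500 (r = 0.999) and Os01g0895200 (r = 0.996), and 6 genes had a correlation of at least 0.99 with it. Os01g0895200 held 2742 fragments in salt S-type roots and 290 to 762 in the other libraries. Os02g0620600 came closest to Os07g0167000 (r = 0.992) and Os01g0544700 (r = 0.9902). These correlations are descriptions over 6 unreplicated libraries, chosen as the highest of many.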

How the data were processed

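Values come from 2 deposited tables. Per the submitters' processing notes, the tools were Cuffdiff 2.2.1, Trimmomatic 0.32, Bowtie, TopHat2 2.0.11 and Cufflinks 2.2.1, on the build IRGSP-1.0; settings, and the treatment of fragments with several matches, are not given in the sources used here. The authors deposited per gene a scaled signal, the fragment count times 1 factor per library (0.829 to 1.29 per fragment). Whole fragments were recovered for 99.988% to 100% of values above 0 within 0.02 fragments. The authors also deposited FPKM values, p-values and q-values for 15 pairs of libraries. The main test, limma 3.58.1 (trend), fitted log2 values, TMM-scaled with a pseudocount of 1, additive in root type and treatment, after filterByExpr by treatment, with Benjamini-Hochberg adjustment. The test of the salt effect was checked on simulated data in which salt acted alike in every root type. That check cannot show how the test does where root types respond differently, and root type effects were not part of it. The edgeR 4.0.16 quasi-likelihood test and DESeq2 1.42.0 on recovered fragments, other pseudocounts, scalings and filters, and fits without each root type were alternatives, and fits without each library were added after the data were seen. Ratios of 1 library to another used the deposited value plus 1 and exact conditional binomial 95% intervals. Coordinates count from 1. The members, lists and rules for named genes were chosen with earlier results of these data known. The rules named all members, the closest profiles, and in each list the 3 genes with the largest salt effect among those with a supported name. List genes and markers given by identifier alone were added after a look at their values. A name was kept when RefSeq (assembly ASM3414082v1) had it on the same chromosome, in the same order, with a length ratio of 0.4 to 1.6.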

Additional observations from a re-analysis of the deposited data

Results flagged for a closer look

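Os02g0620600, one of the AMT1 genes, had salt ratios on both sides of 0. Its log2 ratio of salt to control was -0.23 for nodal roots, against 0.44 for S-type and 1.61 for L-type pairs, and each counting interval excluded 0. With 1 library per group the difference between root types was not tested.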

How the results depend on the processing

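No paired analysis was possible because the groups share only replicate number 1, with 1 library each. Salt and control were compared within root types through the root type term. The count of members called for salt was 0 in every alternative. Genes called for salt over all genes were 24 as reported, 14 with a mean of at least 50 scaled fragments, 28 with edgeR, 172 with DESeq2, 0 without the root type term (where 196 had an unadjusted p under 0.05), 3 with nodal roots left out, 0 with S-type roots left out, 38 with L-type roots left out, and between 0 and 45 without 1 library. Without 1 library, L-type against S-type roots gave 3073 to 5814 calls and 1 to 4 members, L-type against nodal roots 6 to 2820 calls and 0 to 2 members, and S-type against nodal roots 6339 to 11802 calls and 2 to 4 members. Those fits without 1 library tested between 20414 and 20686 genes. With a minimum of 10 scaled fragments, nodal roots had 1236 genes past 2-fold (6.0% of 20519), with 1 of 5 members among them. S-type roots had 1456 (7.4% of 19679), with 2 of 6 members, Os02g0620500 and NRT2.3. L-type roots had 1915 (9.3% of 20536), with 2 of 5 members. With FPKM plus 1 in place of scaled fragments, 0 of 4 members were at least 2-fold in nodal roots, where 2.56% of 15223 genes were. With no filter on low values Os02g0620500 was tested as well and called. Then 4 members were called in S-type against nodal roots, where 41.5% of 28738 genes were called. In L-type against S-type roots 4 members were called, where 23.4% of genes were. The calls of Os02g0620500 set S-type libraries against nodal and L-type libraries at or under the floor of 3 fragments. No member's value that was called in the main test changed sign in an alternative. AMT1;1 in L-type against S-type roots, not called in the main test, did change sign. It had 0.90 without the control L-type library and -0.22 without the salt L-type library.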

Other observations

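Of the 5 tested other ammonium transporters with a supported name, 3 were called in S-type against nodal roots and 3 in L-type against S-type roots, and AMT2;3 was called in neither. AMT2;2 was lower in S-type than in nodal roots with a log2 difference of -1.40 (SE 0.32, limma adjusted p = 0.0121) and higher in L-type roots than S-type ones, with 2.32 (SE 0.32, limma adjusted p = 0.00456). AMT3;2 had -1.61 (SE 0.25, limma adjusted p = 0.00285) and 1.35 (SE 0.25, limma adjusted p = 0.0109) in the same comparisons. AMT3;3 was lower in S-type than in nodal roots, with -1.38 (SE 0.37, limma adjusted p = 0.0209), and AMT2;1 was lower in L-type roots than S-type ones, with -0.75 (SE 0.22, limma adjusted p = 0.0421). The naming of AMT2;3 and AMT3;3 followed a look at their values. In S-type against nodal roots 55.3% of all genes were called, close to the share of this list, and in L-type against S-type roots 34.5%.

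Of the 4 tested regulators of the nitrate response with a supported name, 1 was called higher, 1 lower and 2 not called in S-type against nodal roots. There 55.3% of all genes were called, so the count among these 4 is close to that of all genes. NIGT1, the nitrate-induced repressor, was lower in S-type than in nodal roots, with -1.35 (SE 0.22, limma adjusted p = 0.00310). The regulator NLP1 was higher there, with 0.66 (SE 0.16, limma adjusted p = 0.0129). The identifiers of this list without a supported name were left out of the count, and all were called higher there. Os09g0549450 had 0.82 (SE 0.14, limma adjusted p = 0.0041) and Os11g0264300 had 1.02 (SE 0.13, limma adjusted p = 0.00155). Os02g0136000 had 0.98 (SE 0.15, limma adjusted p = 0.00259).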
